A study of Caenorhabditis elegans with 16 samples.

Results

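The RNA polymerase landscape of the intestine was described for Caenorhabditis elegans L4 larvae that carry baf-1(G12T), a glycine-to-threonine change in BAF-1, the barrier-to-autointegration factor that links chromatin to the nuclear envelope. The measurement was RAPID (RNA polymerase DamID), which gives each gene a log2 ratio of Dam::RPB-6 over GFP::Dam, called the score here. All genes of the deposited table with a name and at least 4 GATC fragments were ranked by this score, which left 16283 of 19974 named genes. The other 3691 named genes have fewer fragments and were left out, as were 11 of the 19985 rows that name no gene. The highest 200 genes are called the top and the lowest 200 the bottom, and each holds 1.23% of the ranking. The table gives a single score and a single FDR per gene for the 2 replicates together. No score therefore has a replicate error, the table holds no reads per gene, and no difference between genes was tested.

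Dam::RPB-6 came from strain BN1417 and GFP::Dam from strain BN1053, with 2 libraries each out of the 16 libraries and 8 groups of the series. Both strains carry baf-1(bq19[G12T]) on chromosome III and FLP recombinase under the nhx-2 promoter. FLP removes a cassette encoding mCherry::HIS-58 in intestinal cells, and the Dam fusion is then made at trace level from the hsp-16.41 promoter of a single-copy insertion on chromosome II. Larvae fed on dam-deficient E. coli GM119 were grown for 48 h at 20 °C, and each sample of 200 ng genomic DNA came from 4000 whole animals, so the tissue is set by where FLP acts. The tables set beside the ranking come from WT intestine (Dam::RPB-6 in BN1415, GFP::Dam in BN1051) and from hypodermis, where the dpy-7 promoter drives FLP, of baf-1(G12T) (BN1416, BN1048) and WT animals (BN1414, BN561). Each of the 4 tables has its own GFP::Dam libraries.

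RPB-6 is a small subunit shared by the nuclear RNA polymerases, so a Dam methyltransferase fused to it marks GATC sequences that a polymerase visits, whichever polymerase it is. Free GFP::Dam marks accessible GATC sequences, so the score is an occupancy relative to accessibility and not an amount of RNA. The intestine of C. elegans is a tube of polyploid epithelial cells that digests bacteria, stores fat, makes yolk lipoproteins for the germ line and defends the animal against swallowed microbes. Many of its genes are controlled by the GATA factors ELT-2 and ELT-7, which bind the sequence TGATAA.

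The 250 bases before the annotated start of 5 genes of the intestine are shown because 4 of them hold places near the head of the ranking, whereas spp-5, also known from the intestine, is among its 10 lowest genes. The vitellogenins vit-6 and vit-2 encode yolk proteins, act-5 the actin of the microvilli, asp-1 an aspartic protease and spp-5 a saposin-like antimicrobial protein. The sequence is that of WBcel235 from RefSeq, written 5′ to 3′ on the strand of the gene, and capitals mark TGATAA or its reverse complement TTATCA.
vit-6, chrIV:8260907-8261156, plus strand: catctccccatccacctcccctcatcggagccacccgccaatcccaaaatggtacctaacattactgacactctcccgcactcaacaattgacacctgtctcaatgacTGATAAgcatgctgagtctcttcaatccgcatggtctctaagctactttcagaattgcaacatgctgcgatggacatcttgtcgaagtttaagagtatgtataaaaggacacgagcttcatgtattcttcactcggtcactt
vit-2, chrX:5100792-5101041, plus strand: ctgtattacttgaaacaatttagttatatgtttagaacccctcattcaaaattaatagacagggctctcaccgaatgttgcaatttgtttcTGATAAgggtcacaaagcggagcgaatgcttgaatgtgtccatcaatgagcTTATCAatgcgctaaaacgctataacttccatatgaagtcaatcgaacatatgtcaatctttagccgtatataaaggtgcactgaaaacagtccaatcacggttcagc
act-5, chrIII:13606067-13606316, minus strand: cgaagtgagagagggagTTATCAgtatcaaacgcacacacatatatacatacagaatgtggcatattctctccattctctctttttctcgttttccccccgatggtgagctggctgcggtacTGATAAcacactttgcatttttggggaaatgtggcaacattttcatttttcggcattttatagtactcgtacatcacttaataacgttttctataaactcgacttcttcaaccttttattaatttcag
asp-1, chrV:19050753-19051002, minus strand: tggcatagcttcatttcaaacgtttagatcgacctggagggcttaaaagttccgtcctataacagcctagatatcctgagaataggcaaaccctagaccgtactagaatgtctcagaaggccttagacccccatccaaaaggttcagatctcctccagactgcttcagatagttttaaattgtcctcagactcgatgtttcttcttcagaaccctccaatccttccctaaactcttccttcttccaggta
spp-5, chrX:7320355-7320604, minus strand: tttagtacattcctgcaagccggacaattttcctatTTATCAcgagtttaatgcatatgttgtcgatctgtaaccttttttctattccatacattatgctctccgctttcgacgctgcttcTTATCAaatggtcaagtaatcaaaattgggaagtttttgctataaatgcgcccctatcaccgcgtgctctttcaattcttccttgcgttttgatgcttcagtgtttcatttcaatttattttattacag
The window of vit-6 has 1 such site, beginning 142 bases before the gene. That of vit-2 has 2, at 159 and 108 bases, and that of act-5 has 2, at 233 and 128 bases. The window of spp-5 also has 2, at 214 and 129 bases. The window of asp-1 has none, and it has 2 GATC sequences.

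The scores had a median of -0.03 and an SD over genes of 0.209, with the middle of the distribution, from the first to the third quartile, between -0.11 and 0.04. They ran from -1.26 to 2.68, and the high side reached further than the low side. A score above 1 was seen in 55 genes and a score below -1 in 10, while 357 genes were above 0.5 and 223 below -0.5. Of the ranked genes, 34.9% were above 0. At the authors' FDR under 0.05, 2008 of the 16283 genes were called transcribed, which is 12.3% of them. Every gene of the top had been called, with an FDR of at most 0.00622, and no gene of the bottom had been, since the call is one of high scores. The edge of the top lay between lsm-7 (0.646) and nog-1 (0.645), and that of the bottom between Y52E8A.2 (-0.5209) and wrm-1 (-0.5208), so the genes on either side of an edge did not differ in any useful way.

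**Figure D1:**
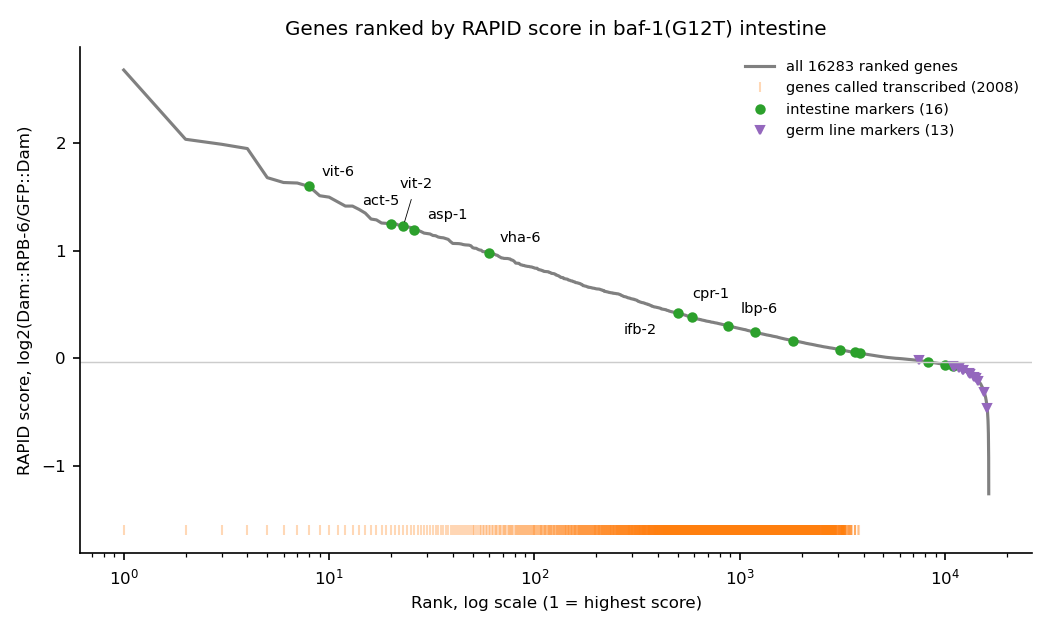
RAPID score (log2, vertical axis) of the 16283 ranked genes against rank (horizontal log axis, 1 is the highest), with 16 intestine markers as circles, 13 germ line markers as triangles and an orange tick for each of the 2008 genes called transcribed. vit-6, act-5, vit-2, asp-1 and vha-6 sit among the top 200 genes, whereas all 13 germ line markers lie below 0.

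The label of the tissue was checked with marker genes. Of 20 intestine markers, 16 had enough fragments, and 10 of these (62.5%) were called, against 12.3% of all ranked genes. Their median score was 0.27. The 5 highest belong to the top: vit-6 scored 1.60, act-5 1.25, vit-2 1.23, asp-1 1.20 and vha-6, a subunit of the apical proton pump, 0.98. Lower scores with a call were seen for the intermediate filament gene ifb-2 (0.42), the cathepsin B gene cpr-1 (0.38), the fatty acid-binding protein gene lbp-6 (0.30), the sodium/proton exchanger gene nhx-2 (0.24) and the peptide transporter gene pept-1 (0.16). The acid phosphatase gene pho-1 (0.08), the aquaporin gene aqp-4 (0.06), the ferritin gene ftn-1 (0.05), ifc-2 (-0.03), the esterase gene ges-1 (-0.06) and elt-2 (-0.08) were not called. The last 3 lay below the median of all genes, so the markers reached from the head of the ranking to below its middle. The 4 intestine markers with fewer fragments scored -0.02 to 0.09 and none was called.

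The marker lists of other tissues had medians below 0, as did all ranked genes, whose median was -0.03. The median of the germ line list was lowest, and those of hypodermis, pharynx and neurons lay close to that of all ranked genes. Among 13 hypodermis markers 1 (7.69%) was called, bli-1 at 0.12, against 12.3% of all ranked genes, and the median was -0.04. The cuticle collagen gene dpy-13 scored 0.01 here and 2.78 in the hypodermis of the same genotype, and elt-3, which encodes a hypodermal GATA factor, scored -0.40 here and 0.92 there. However, 4 of the 13 scored higher here than in that hypodermis, among them bli-1 (0.02 there) and dpy-10 (-0.01 here and -0.11 there). Of 12 body wall muscle markers 3 (25%) were called, a share above 12.3%: mup-2 (0.35), unc-15 (0.08) and deb-1 (0.07). These 12 are long genes with a median of 35 fragments, and 23.4% of all genes with 32 or more fragments were called. The median score of the 12 was -0.06, and the myosin genes myo-3 (-0.15) and unc-54 (-0.18) were below 0. None of 8 pharynx markers was called (median -0.04, range -0.19 to 0.09). Of 16 neuron markers 3 (18.75%) were called, the kinesin gene unc-104 (0.26), the carboxypeptidase gene egl-21 (0.25) and rgef-1 (0.10), with a median of -0.03. The neuron markers had a median of 16.5 fragments, and 19.7% of all genes with 16 to 31 fragments were called. All 13 germ line markers were below 0, from oma-1 (-0.46) and gld-1 (-0.32) to rec-8 (-0.02), with a median of -0.14. The share of other tissues in the scores was not tested.

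Components of the transgenes themselves had ordinary scores. The gene nhx-2, whose promoter drives FLP, was called at 0.24. The gene rpb-6, which Dam::RPB-6 also carries, scored 0.14 and was not called, and unc-119 and hsp-16.41 scored -0.06 and -0.18.

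The highest score belonged to F22B7.9 (chrIII:8652578-8653925), which RefSeq lists as an uncharacterized protein. Its 2.68 corresponds to 6.41 times more signal with Dam::RPB-6 than with GFP::Dam over 10 fragments. It was followed by F21C3.7 (2.04, chrI:7278735-7279614), annotated as a small integral membrane protein, by hsp-1 (1.99, chrIV:17278959-17281330), the cytosolic Hsp70 chaperone, and by F14E5.8 (1.95, chrII:8420098-8422186), annotated with the importin-beta-binding domain of importin alpha. Genes for making and folding proteins came next. They were the elongation factor gene eef-1A.1 (1.68), the ribosomal protein gene rps-13 (1.63), the calreticulin gene crt-1 (1.63), sec-61.A (1.51), which encodes the channel for entry into the endoplasmic reticulum, and ubq-2 (1.42), a fusion of ubiquitin with a ribosomal protein. The cytosolic chaperone gene hsp-90 scored 1.38. The others of the 15 highest were vit-6 (1.60), mbf-1 (1.50), which encodes a transcriptional coactivator, F31F7.1 (1.46, an N-acetyltransferase domain protein), F26A3.4 (1.42, a protein-tyrosine phosphatase) and ant-1.1 (1.35), the ADP/ATP carrier of mitochondria.

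The same 15 genes were looked up in the other tables. In WT intestine all 15 were above 0 and 13 were among its own 200 highest, with ubq-2 (0.02) and F26A3.4 (0.10) as the exceptions. F22B7.9 scored 3.62 in WT intestine, 2.96 in baf-1(G12T) hypodermis and 1.84 in WT hypodermis. F14E5.8 scored 3.79, 2.96 and 2.87 in that order, and F21C3.7 scored 3.07, 3.25 and 2.45, so these 3 genes were high in every table. The score of vit-6 was 1.50 in WT intestine but 0.06 and -0.12 in hypodermis, and that of mbf-1 was 0.89 in WT intestine and -0.27 and 0.73 in hypodermis.

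**Figure D2:**
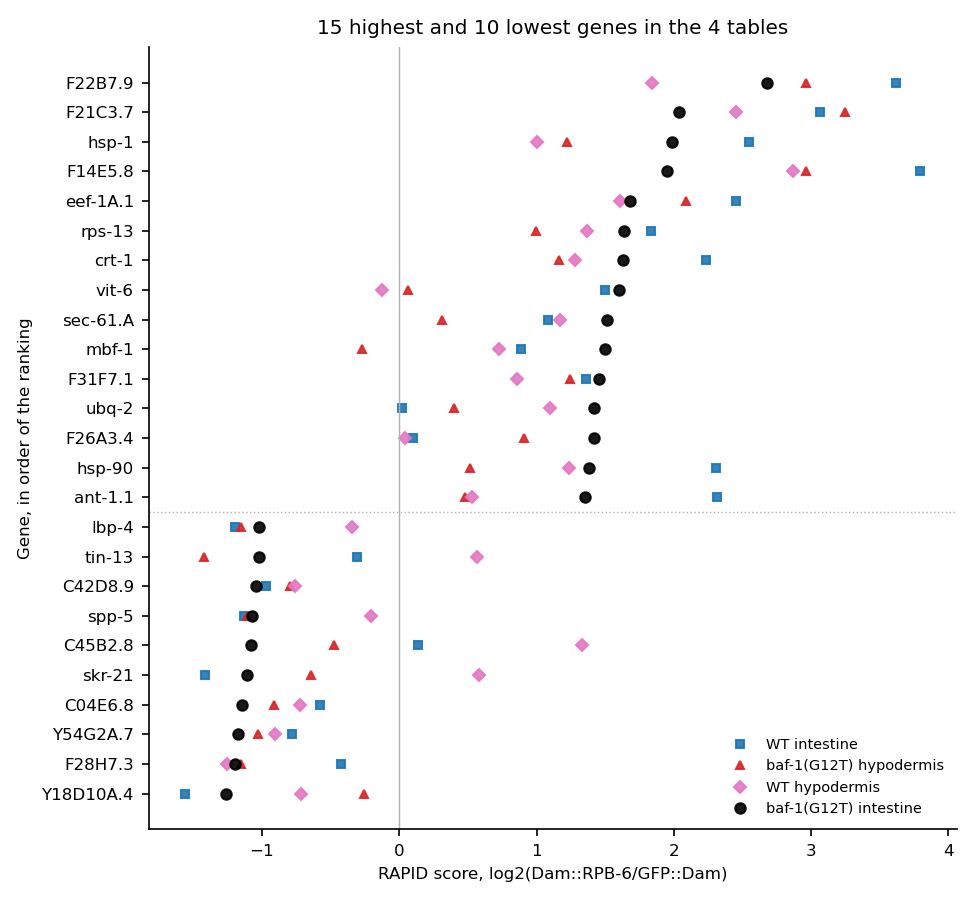
RAPID score (log2, horizontal axis) of the 15 highest and 10 lowest ranked genes in baf-1(G12T) intestine (circles), WT intestine (squares), baf-1(G12T) hypodermis (triangles) and WT hypodermis (diamonds). F22B7.9, F21C3.7 and F14E5.8 are high in all 4 tables, vit-6 is high in the 2 intestine tables, and C45B2.8 is at -1.08 in baf-1(G12T) intestine but at 1.33 in WT hypodermis.

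Gene lists were drawn up by gene name, so a gene known only by a sequence name, or named otherwise, is not on a list whatever its annotation, and highest and lowest below refer to listed genes. Cytosolic ribosomal protein genes were the largest listed group at the head of the ranking. Of 83 such genes 47 were ranked, and 18 of them were in the top, making up 9% of it against 0.289% of all ranked genes. In total 36 of the 47 (76.6%) were called, with a median of 0.56. The 3 highest were rps-13, ubq-2 and rpl-10 (1.23), and the 2 lowest were rps-20 (-0.26) and rps-5 (-0.66), the latter in the bottom. The other 36 ribosomal protein genes are too short to have 4 fragments, with scores from -0.34 to 1.20, and 15 of these were called, at 0.44 or above. The highest of them, rpl-27 (1.20 over 2 fragments) and rpl-29 (1.12 over 2), were also among the 3 highest genes left out of the ranking, together with pud-4 (1.16 over 3). Ribosomal proteins of the mitochondrion did not share this position. Of 45 ranked genes 6 were called (13.3%), close to 12.3%, with a median of -0.02, a highest member mrpl-24 (0.53), mrpl-48 (0.46) and mrpl-12 (0.36) next, and mrpl-10 (-0.61) and mrps-34 (-0.78) in the bottom. Among 70 translation factors and tRNA synthetases 21 (30.0%) were called and the median was -0.01, so that eef-1A.1, eef-1A.2 (1.05) and eif-6 (0.76) stood far above most of their list, whose lowest were lars-2 (-0.56) and ife-1 (-0.77).

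**Figure D3:**
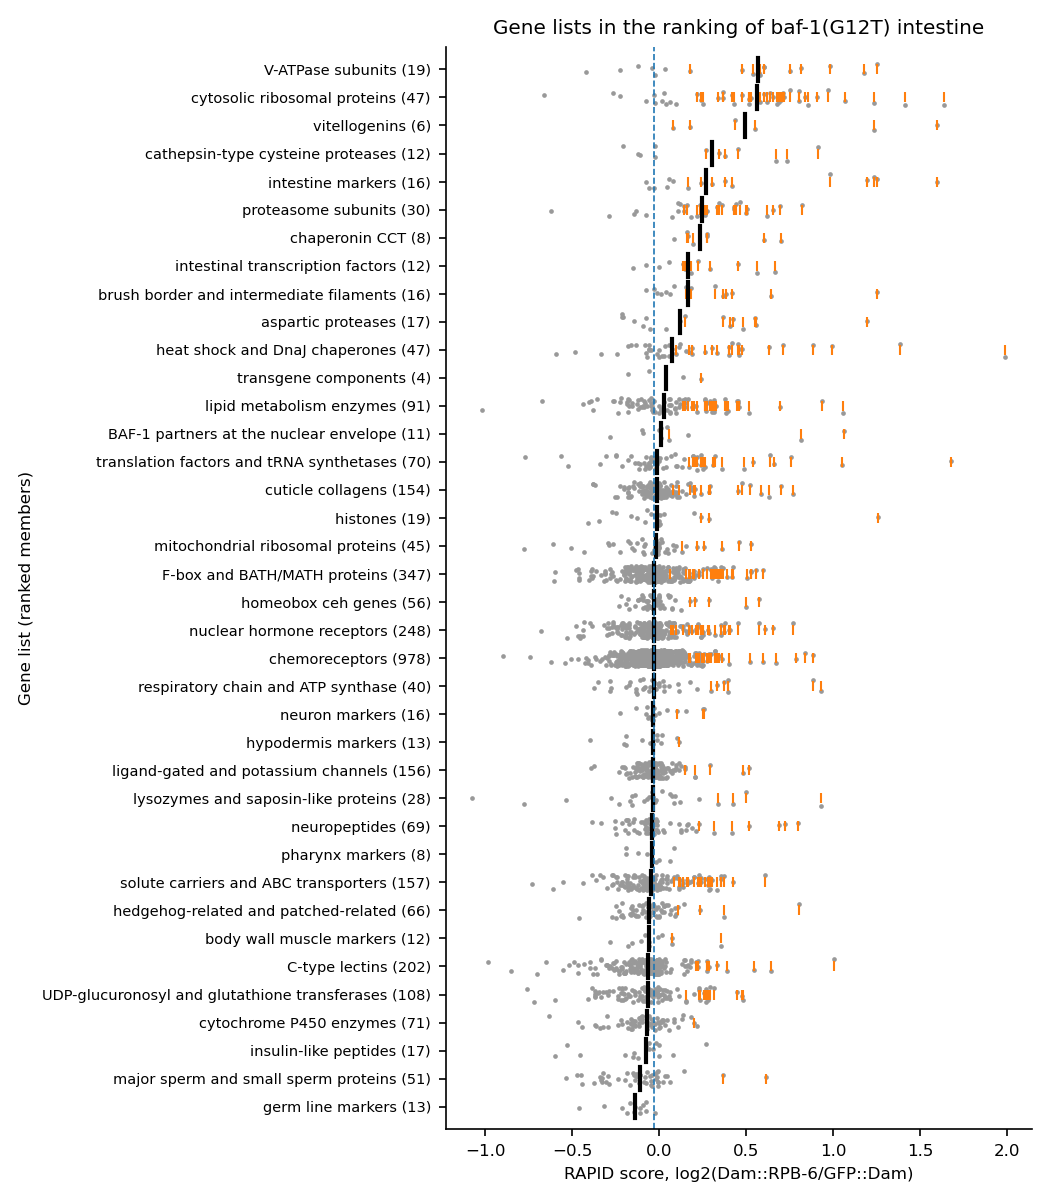
RAPID score (log2, horizontal axis) of the ranked members of 38 gene lists (number of members in parentheses) in baf-1(G12T) intestine, with a grey point per gene, an orange tick per gene called transcribed, a black bar at the median of the list and a dashed line at the median of all ranked genes (-0.03). V-ATPase subunits (0.57), cytosolic ribosomal proteins (0.56) and vitellogenins (0.49) have the highest medians and germ line markers (-0.14) the lowest.

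The V-ATPase, the proton pump that acidifies the gut lumen and lysosomes, had a median as high as that of the ribosome. Of 19 ranked subunits 13 (68.4%) were called, against 12.3% of all ranked genes. In the top were 5 of the subunits, and the median of the 19 was 0.57. The membrane sector gene vha-1 scored 1.25, the related gene vha-4 1.18 and vha-6 0.98, while vha-18 (-0.22) and spe-5 (-0.42), which is required in sperm, were lowest. In WT intestine vha-1 scored -0.31, vha-4 0.39 and vha-6 0.51, and 14 of the 19 subunits were lower there, with a median of 0.09, as were 68.8% of all ranked genes. Whether this difference exceeds the spread of replicates could not be tested.

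Digestive enzymes and yolk proteins followed. All 6 vitellogenin genes were called, against 12.3% of all ranked genes, with vit-6 and vit-2 highest, vit-5 at 0.55, vit-1 at 0.43 and vit-3 (0.18) and vit-4 (0.08) lowest. They had a median of 29 fragments, and 19.7% of all genes with 16 to 31 fragments were called. The gene spans of vit-3, vit-4 and vit-5 share 73.8%, 79.1% and 49.5% of their sampled 50-base words with other places in the genome, whereas vit-6 shares none and vit-2 12.7%, so how reads were assigned among the first 3 is uncertain. Of 17 aspartic protease genes 8 (47.1%) were called, led by asp-1, asp-13 (0.56) and asp-3 (0.55), with asp-18 and asp-8 lowest at -0.21. Of 12 cathepsin-type cysteine protease genes 7 (58.3%) were called, led by cpr-4 (0.91), cpz-2 (0.74) and cpr-6 (0.67) in the top, and cpr-8 (-0.12) and cpr-5 (-0.20) were lowest. In WT intestine asp-1 scored 2.14, cpr-6 1.17 and cpz-2 0.85, whereas cpr-4 scored -0.65.

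Structural and regulatory genes of the intestinal cell were moderately high. Of 16 brush border, junction and intermediate filament genes 9 (56.3%) were called, against 12.3% of all ranked genes. Highest were act-5 and the intermediate filament genes ifd-1 (0.64) and ifb-2, and ifc-2 and ifd-2 (-0.07) were lowest. Of 12 transcription factor genes with a role in the intestine 8 (66.7%) were called. The structural and the transcription factor list had medians of 19.5 and 20 fragments, and 19.7% of all genes with 16 to 31 fragments were called. The Mediator subunit gene mdt-15 (0.67), which regulates fat metabolism, was in the top, pqm-1 (0.56) and the fatty acid regulator nhr-49 (0.45) came next, and elt-2 (-0.08) and the embryonic factor end-1 (-0.15) were the lowest ranked. The 4 transcription factor genes of the list with fewer fragments scored -0.52 to 0.05 and none was called.

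Genes for protein quality control ranked above the middle. Of 30 proteasome subunit genes 19 (63.3%) were called, against 12.3% of all ranked genes. The median of the 30 was 0.25, and scores ran from pbs-5 (0.82), pas-2 (0.70) and pbs-6 (0.65) to rpn-11 (-0.29) and rpn-6.2 (-0.62). Of the 8 subunits of the chaperonin CCT, which folds actin and tubulin, 7 (87.5%) were called, cct-7 (0.70), cct-1 (0.60) and cct-6 (0.28) being highest and cct-8 (0.16) and cct-4 (0.09) lowest. Of 47 heat shock protein and DnaJ genes 20 (42.6%) were called. Beside hsp-1 and hsp-90, the third was hsp-3 (0.99), which encodes the Hsp70 of the endoplasmic reticulum, and dnj-18 (-0.49) and dnj-21 (-0.59) closed the list.

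Metabolic genes were split. Of 91 lipid metabolism genes 27 (29.7%) were called, against 12.3% of all ranked genes. The acyl-CoA dehydrogenase genes acdh-1 (1.06) and acdh-9 (0.70) and the acyl-CoA synthetase gene acs-2 (0.93), all of fatty acid or branched-chain breakdown, were in the top, whereas the fatty acid-binding protein genes lbp-3 (-0.67) and lbp-4 (-1.02) were in the bottom. Of 40 respiratory chain and ATP synthase genes 7 (17.5%) were called, with cyc-2.1, a cytochrome c gene (0.93), atp-2 (0.89) and atp-1 (0.40) highest and sdhb-1 (-0.35) and cox-19 (-0.38) lowest. Y82E9BR.3, which is not on the list but is annotated as the c subunit of ATP synthase, scored 1.12.

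Detoxification, defence and transporter families, known for intestinal expression, were called at shares below or near the 12.3% of all ranked genes. Of 71 cytochrome P450 genes 1 (1.41%) was called, cyp-35C1 at 0.20; cyp-13A10 (0.22) was higher without a call, cyp-35A2 scored 0.18, and the lowest were cyp-33C7 (-0.47) and cyp-13A4 (-0.63). UDP-glucuronosyl and glutathione transferase genes were called in 13 of 108 (12%), with gst-27 and gst-40 (both 0.48) and gst-39 (0.45) highest and gst-33 (-0.72) and ugt-6 (-0.76) lowest. C-type lectin genes of the clec class, many of them secreted in response to microbes, were called in 11 of 202 (5.45%). The highest were clec-63 (1.01), clec-126 (0.64) and clec-48 (0.55), and 5 clec genes were in the bottom, clec-52 (-0.85) and clec-51 (-0.98) being lowest. Y54G2A.7, annotated with a C-type lectin domain but without a clec name, was lower still at -1.18. Lysozyme and saposin-like genes were called in 4 of 28 (14.3%). The lysozyme gene lys-1 (0.93) was in the top, spp-8 (0.50) and spp-16 (0.43) came next, and spp-12 (-0.78) and spp-5 (-1.07) were lowest. Of 157 genes named as solute carriers or ABC transporters, which leaves out ant-1.1, 24 (15.3%) were called, the sugar transporter gene swt-6 (0.61), pept-3 (0.43) and slc-17.6 (0.37) being highest and ent-2 (-0.61) and slc-25A18.2 (-0.73) lowest.

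Large families with roles mainly outside the intestine lay close to the median of all genes, -0.03. The shorter list of insulin-like peptides had a lower median, -0.07. Chemoreceptor genes, which serve sensory neurons, were the largest list, with 25 of 978 (2.56%) called and a median of -0.03. Still, srxa-8 (0.88), srh-206 (0.84), srsx-19 (0.79) and srv-16 (0.67) were in the top, and srh-237 (-0.74) and srj-22 (-0.90) were lowest. Neuropeptide genes were called in 7 of 69 (10.1%), with nlp-22 (0.80), flp-23 (0.72) and nlp-62 (0.69) in the top and flp-13 (-0.33) and nlp-67 (-0.39) lowest. No insulin-like peptide gene of 17 was called, the highest being ins-17 (0.27), ins-7 (0.08) and ins-39 (-0.0015). Of the 17, 2 (11.8%) were in the bottom, ins-31 (-0.53) and ins-1 (-0.60), against 1.23% of all ranked genes. Ligand-gated and potassium channel genes were called in 6 of 156 (3.85%), from twk-21 (0.52), acr-3 (0.48) and acr-18 (0.29) to twk-32 (-0.37) and glr-8 (-0.39).

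Among regulators, called shares were also near or below 12.3%. Nuclear hormone receptor genes were called in 29 of 248 (11.7%). The highest, nhr-101 (0.77) and nhr-69 (0.65), were in the top, nhr-16 scored 0.61, and nhr-103 (-0.53) and nhr-58 (-0.68) were in the bottom. Homeobox genes of the ceh class were called in 5 of 56 (8.93%), from ceh-58 (0.57), ceh-43 (0.50) and ceh-87 (0.29) to ceh-31 (-0.22) and ceh-39 (-0.23). F-box and BATH/MATH genes, which encode adaptors for ubiquitin ligases, were called in 30 of 347 (8.65%), from bath-33 (0.60), fbxb-21 (0.55) and fbxb-14 (0.53) to fbxc-50 (-0.60) and fbxa-114 (-0.61). F43C9.1, annotated with an F-box domain but not on the list by name, scored -0.88.

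Genes of cuticle, sperm and chromatin were called at shares below or near 12.3%. Cuticle collagen genes were called in 15 of 154 (9.74%), with col-171 (0.77) and col-101 (0.70) in the top, col-84 at 0.63 and col-75 and col-118 lowest at -0.38. Hedgehog-related and patched-related genes were called in 4 of 66 (6.06%), from grl-10 (0.81), ptc-1 (0.38) and ptr-2 (0.23) to wrt-7 (-0.27) and grl-21 (-0.46). Sperm protein genes were called in 2 of 51 (3.92%), with a median of -0.11. They were msp-31 (0.61), of whose sampled words 71.4% occur elsewhere in the genome, and gsp-4 (0.37), followed by msp-19 (0.14), and msp-65 (-0.47) and msp-77 (-0.53) were lowest. ZK1307.3, annotated with a motile sperm domain but not on the list by name, scored -0.94. Of 81 histone genes only 19 had enough fragments, and 3 of these (15.8%) were called. Of the 62 with fewer fragments 2 were called. The variant H2A gene htz-1 (1.26) was in the top, the linker histone gene his-24 (0.29) and the H3.3 gene his-72 (0.24) were called, and his-40 (-0.35) and his-74 (-0.41) were lowest.

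Genes encoding BAF-1 and its partners at the nuclear envelope were not alike. Of 11 genes 3 (27.3%) were called, against 12.3% of all ranked genes. The emerin gene emr-1 scored 1.06 and baf-1 itself 0.81 over 4 fragments, both in the top, and lem-2 followed at 0.17 without a call. The lamin gene lmn-1 scored 0.05, and lem-3 (-0.10) and npp-19 (-0.28) were lowest. In WT intestine emr-1 scored 2.43, baf-1 2.02 and lmn-1 0.49, and in the hypodermis of baf-1(G12T) lmn-1 scored 3.11. The third gene called was anc-1 (0.06), which connects nuclei to actin.

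The lowest score was that of Y18D10A.4 (-1.26 over 4 fragments, chrI:12815904-12816558), an uncharacterized gene with 0.418 times as much signal from Dam::RPB-6 as from GFP::Dam. Next came F28H7.3 (-1.19, a lipase domain protein, chrV:10749605-10750788), Y54G2A.7 (-1.18, a C-type lectin domain protein, chrIV:2838608-2839432), C04E6.8 (-1.15), skr-21 (-1.11), which encodes a Skp1-related subunit of ubiquitin ligases, and C45B2.8 (-1.08), annotated as a transposase. The remaining genes of the 10 lowest were spp-5, C42D8.9 (-1.04), the mitochondrial import gene tin-13 (-1.02) and lbp-4. Members of the gene lists made up 36 of the 200 genes of the bottom (18%), near the 20.0% of all ranked genes, and 33.0% of the top. Genes known only by a sequence name made up 53.5% of the bottom, 31% of the top and 43.5% of all ranked genes. Of the 10 lowest genes 9 were also below 0 in WT intestine and 10 in the hypodermis of baf-1(G12T). The exception in WT intestine was C45B2.8 at 0.14. In WT hypodermis 7 were below 0, while tin-13 scored 0.57, skr-21 0.58 and C45B2.8 1.33. Of all 16283 ranked genes, 2677 were above 0 in WT intestine, 6256 in baf-1(G12T) hypodermis and 4269 in WT hypodermis. Most genes were thus not above 0 in any of these tables, and a score below 0 alone says little. Among the 200 lowest genes of these tables were 6, 8 and 5 of the 10, in the same order. C45B2.8 was among the 200 highest of WT hypodermis. The lowest genes left out of the ranking were B0035.18 (-1.70 over 2 fragments), F31A3.3 (-1.40 over 3) and EGAP5.1 (-1.17 over 2).

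Among ranked genes, the scores spread less the more fragments a gene had. The SD over genes was 0.221 for 4 to 7 fragments, 0.209 for 8 to 15, 0.193 for 16 to 31 and 0.145 for 32 or more. Among genes left out of the ranking it was smaller again, 0.181 for 2 or 3 fragments and 0.122 for 1. Of the 6575 genes with 4 to 7 fragments, 96 (1.46%) were in the top and 127 (1.93%) in the bottom. Of the 927 with 32 or more, 4 (0.431%) and 1 (0.108%) were. Each end holds 1.23% of all ranked genes. The opposite held for the calls, with 7.71%, 12.4%, 19.7% and 23.4% of genes called in the same order. The lowest score that was called fell from 0.20 to 0.12, 0.08 and 0.05. The median gene span was 1372 bases in the top, 1276 in the bottom and 2710 among called genes, against 2412 in the ranking. A place in the top and a call are thus 2 selections, and a long gene such as anc-1 (0.06) was called at a score at which a short gene was not.

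**Figure D4:**
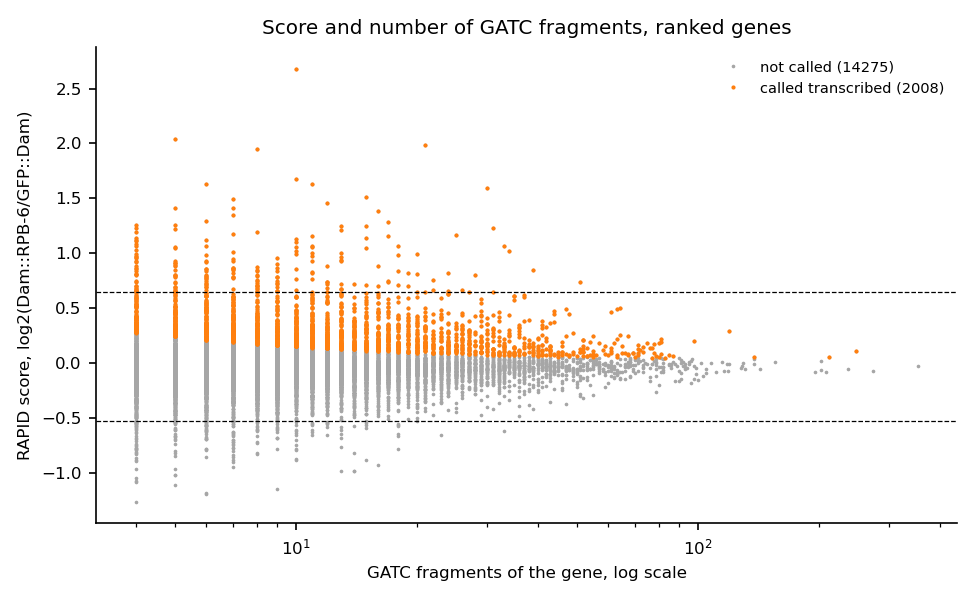
RAPID score (log2, vertical axis) against the number of GATC fragments of the gene (horizontal log axis) for the 16283 ranked genes, with the 2008 called transcribed in orange and the other 14275 in grey, and dashed lines at the edges of the top and bottom. The spread narrows and the lowest called score falls as the number of fragments grows.

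Along the genome the top and bottom were spread over all 6 chromosomes. Chromosome III held 20.1% of the top (95% Wilson interval over genes 15.1 to 26.2, counting error only) and 13.7% of ranked genes. Chromosome X held 12.1% of the top (8.24 to 17.3) and 13.7% of ranked genes. Called genes took 22.3% from chromosome II and 17.6% from chromosome V, against 17.4% and 23.9% of ranked genes. With each chromosome divided into 3 equal parts, the central part of the autosomes, which the heterochromatin-rich arms flank, held 38.8% of ranked autosomal genes. It held 44.6% (37.4 to 52.0) of the top, 47.5% (45.2 to 49.9) of the called and 55.5% (48.0 to 62.7) of the bottom, so that both ends of the ranking were more central than the whole, although 38.8% lies inside the interval of the top.

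Genes of the top were often beside other called genes. Of the 199 top genes with a position, 77 (38.7%) had a called gene within 1000 bases, against 14.0% of all ranked genes and 15.0% of the bottom. Another gene of the top was that near for 16 (8.04%), against 1.60% of all ranked genes. Spans that overlap or adjoin can share a GATC fragment, so such neighbours are not separate measurements, and the authors' scores do not separate them. F22B7.9 lies 383 bases from flp-23 (0.72), a neuropeptide gene. F21C3.7 lies 51 bases from hint-1 (1.19), and F14E5.8 lies 271 bases from F14E5.1 (0.98). The span of eef-1A.1 overlaps F31E3.12 (1.03) by 77 bases. Runs in the top or in the bottom were pairs, with 8 pairs of top genes and 5 of bottom genes. A further 7 pairs joined the 2 ends of the ranking. The most contrasting was vit-2 (1.23), whose span overlaps that of C42D8.9 (-1.04) on the opposite strand by 11 bases, and hsp-3 (0.99) lies 615 bases from C45B2.8 (-1.08). A high and a low score stood side by side in both.

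Sequence before the genes was described with the motif TGATAA on either strand and with GATC, whose letters allow no overlap with it. TGATAA occurred in the 250 bases before 26.9% of ranked genes, 31.7% (25.6 to 38.4) of the top, 30.6% (28.7 to 32.7) of called genes and 33.0% (26.9 to 39.8) of the bottom, so the share did not separate the ends of the ranking. Of the 16 ranked intestine markers 14 had it, asp-1 and ges-1 being without. Among these markers 1 site was found before vit-6 (1.60), the highest, 3 before pho-1 (0.08) and 1 before elt-2 (-0.08), the lowest. GATC occurred before 37.9% of ranked genes, 38.7% (32.2 to 45.6) of the top and 48.5% (41.7 to 55.4) of the bottom.

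Over the 16283 genes, the ranking was more like that of WT intestine (Spearman's rho 0.39, Pearson's r 0.48 over genes) than those of baf-1(G12T) hypodermis (0.24 and 0.25) or WT hypodermis (0.26 and 0.27). These are descriptions over genes, which share libraries and fragments. With WT intestine 79 of 200 top genes (39.5%) and 70 of 200 bottom genes (35.0%) were shared, with baf-1(G12T) hypodermis 39 and 54, and with WT hypodermis 44 and 43. The top genes had a median of 0.84 here, 0.51 in WT intestine, 0.08 in baf-1(G12T) hypodermis and 0.26 in WT hypodermis. The bottom genes had medians of -0.63, -0.64, -0.38 and -0.31 in the same order. The smaller values of the top elsewhere are in part set by the choice of its members on this table.

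In all, 19 genes were in the top of every table. They include F22B7.9, F21C3.7, hsp-1, F14E5.8, eef-1A.1, crt-1 and rla-1 (1.07). The top of both intestine tables, but of neither hypodermis table, held 40 genes, among them vit-6, vit-2, act-5, asp-1, lys-1, acdh-1, atp-2 and baf-1. Another 100 were in the top of this table alone, such as umps-1 (1.22 here and 0.04 in WT intestine), which encodes an enzyme of pyrimidine synthesis, vha-4, vha-6, cpr-4 and the ferritin gene ftn-2 (1.12 and 0.21). Genes were named here after their values were seen, and with a single score per genotype it could not be tested whether they differ between genotypes.

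**Figure D5:**
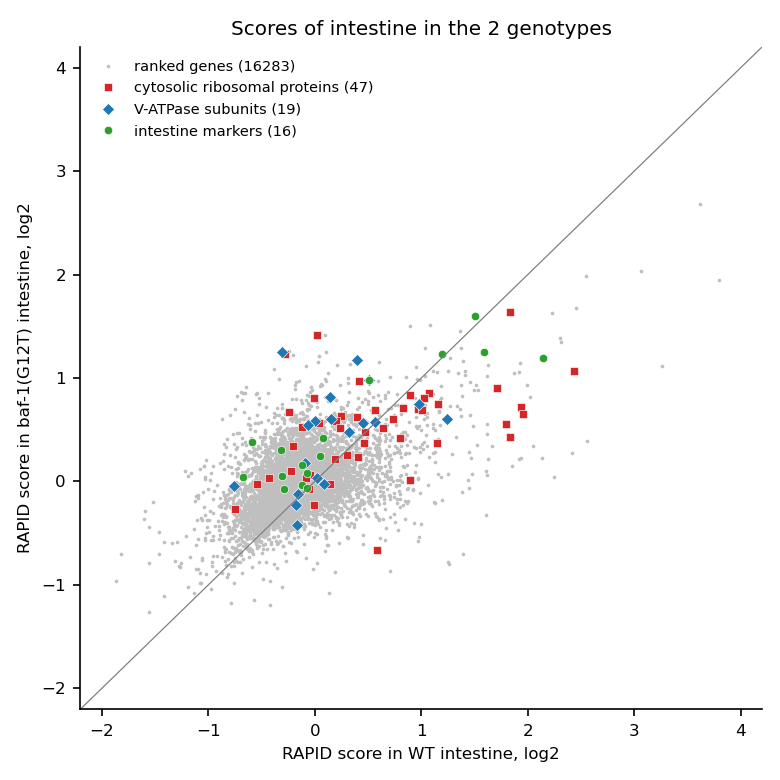
RAPID score (log2) in baf-1(G12T) intestine (vertical axis) against WT intestine (horizontal axis) for the 16283 ranked genes in grey, with 47 cytosolic ribosomal protein genes as squares, 19 V-ATPase subunit genes as diamonds and 16 intestine markers as circles, and a line where both scores are equal. The members of the 3 lists lie on both sides of the line, and 14 of the 19 V-ATPase subunits, 14 of the 16 intestine markers and 21 of the 47 ribosomal protein genes score higher in baf-1(G12T), against 68.8% of all ranked genes.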

How the data were processed

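RAPID was performed by the authors on L4 larvae. They retained reads that held the adapter of the method and mapped to GATC sequences of genome version ce11, which is WBcel235. For each gene the deposited values are a log2 ratio, made with damidseq_pipeline and polii.gene.call from Dam::RPB-6 over GFP::Dam, and an FDR. The authors' FDR is a q-value that scores whether the gene is transcribed. The sources do not say how 2 replicates became 1 value, and the table holds no reads per gene. For 99.5% of 19950 genes placed by name (19890 in Ensembl, 60 in the RefSeq gene table; 24 unplaced), the deposited number of GATC fragments, an unscaled number, equals the GATC motifs within the annotated gene span plus 1. A score thus covers the fragments that touch the gene itself.

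Genes with at least 4 fragments were ranked. Members, gene lists and motifs were chosen with earlier results of these data known. Lists match gene names, not annotations. The genes named are the 15 highest and 10 lowest, up to 3 highest and 2 lowest per list, all intestine markers and transgene components, genes at the edges of the 200-gene ends, the 3 highest and lowest genes left out, and runs of neighbours; the runs are only pairs, and the pairs named, like any other gene, were chosen after their values were seen. No test was made, since genes are not replicates. Repeated sequence was measured as 50-base words, taken every 25 bases of a gene span, that occur more than once in the genome. The counting steps were tested on simulated data. Alternatives were fragment minimums of 1, 2 and 8, ends of 100 and 500 genes, protein-coding genes, 1 gene per run of neighbours within 1000 bases, FDR thresholds of 0.01 and 0.1, and a score above 0.2. The scripts ran on Python 3.11.15 with scipy 1.17.1 for intervals, pandas 2.3.3, matplotlib 3.10.9 and numpy 2.4.6.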

Additional observations from a re-analysis of the deposited data

How the results depend on the processing

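Of 75 alternative values, 70 stayed within the counting interval, the spread of the list or 1.5 times of the reported count. With at least 8 GATC fragments cytosolic ribosomal protein genes were 3.50% of the top rather than 9%, and 0% of the bottom rather than 0.5%. That minimum leaves out short genes, which ribosomal protein genes often are. It kept 10 of them, of which 7 were in the top, and their median was 0.71 rather than 0.56. With ends of 100 genes the central part of the autosomes held 47.1% of the bottom rather than 55.5%. It then held 39.1% of the top rather than 44.6%, which is inside the interval but close to the 38.8% of ranked autosomal genes. TGATAA was then found before 39.4% of the top rather than 31.7%, and before 39.0% of the bottom rather than 33.0%. The causes were not tested. At an FDR of 0.01 the called genes were 1056 rather than 2008, and at 0.1 they were 2835. No paired analysis was possible because the table holds a single score per gene for both replicates, and leaving out a replicate could not be run for the same reason. Score and FDR carry no read counts, so no interval per gene could be given.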

Other observations

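A score of exactly 0 was listed for 127 of the 16283 ranked genes (0.780%), and 116 of them were at 0 in all 4 tables. None was called. Of these 127 genes, 126 had more than 90% of their sampled 50-base words at another place in the genome as well, against 62 of the other 16136 ranked genes with a position (0.384%). Several are neighbouring copies by name, such as mct-1 and mct-2, rgs-8.1 and rgs-8.2, pud-1.1 and pud-1.2, and the heat shock genes hsp-16.1 and hsp-16.11, and 68 of the 127 (53.5%) are on chromosome V. Whether a listed 0 is a measurement for these genes was not tested. The histone genes his-27 and his-49, the fbxc genes from fbxc-1 to fbxc-5, the chemoreceptor genes str-5 and str-6 and the catalase gene ctl-1 are among them. No gene of the top or bottom had more than 90% of repeated words.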
